A study of Mus musculus with 5 samples.

Results

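The genes described here are those whose deposited value was lower after caerulein than after saline in the pancreas of wild-type mice. Members were chosen from the measured values: a gene belonged to the set if the mean of its values in the 2 wild-type caerulein libraries lay below its value in the wild-type saline library. The rule held for 44 of the 1457 genes of the deposited table. A pair of islet genes and families with their own symbol prefixes (splicing, ribosomal, translation-initiation and similar families) were left aside, which removed 4 genes and left 40. Because the wild-type saline and caerulein values chose these genes, the difference between those groups is given as a description, with no test.

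Messenger RNA of whole pancreas was sequenced in 5 libraries from female C57BL/6 mice aged 8 weeks. The groups were wild-type mice given saline (1 library), wild-type mice given caerulein (2 libraries, replicates 1 and 2) and miR-21-/- mice given caerulein (2 libraries, replicates 1 and 3). Caerulein was injected repeatedly at 50 µg/kg into the peritoneal cavity, and the organ was collected at 24 h from the first dose. No saline library of the knockout was analysed, miR-21 itself is not among the listed genes so that its deletion could not be checked here, and the labels do not say whether a library came from 1 mouse or from several.

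The exocrine pancreas consists mostly of acinar cells, which devote most of their messenger RNA to digestive enzymes, with ducts, islets, vessels, nerves and a few resident immune cells between them. Caerulein, an analogue of cholecystokinin, overstimulates acinar cells and starts an acute pancreatitis in which leukocytes enter the tissue and acinar cells lose part of their secretory programme. Genes of lower level in such tissue could in principle belong to any of these cell types. miR-21 is a microRNA that is induced in inflamed and fibrotic tissue, and microRNAs repress transcripts that carry matches to their seed.

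The deposited values have no stated unit and carry no read depth, so they are given without counting intervals. Summed over all genes they came to 2818 for saline and to between 23255 and 38628 for the caerulein libraries. The table holds mainly genes that are high after caerulein: in both knockout libraries 1347 of the 1457 genes (92.5%) lay above saline. The lowest value, 0.01, looks like a placeholder for an undetected gene and was given to 540 genes in saline and for 31 to 89 genes in each caerulein library. Apart from that of Prss1, named below as undetected, no ratio is given against it, and values of 0.01 entered the means as listed. A log2 difference of a gene at 0.01 depends on the number added before taking logs. A highest value of at least 10 in some library was reached by 1416 of the 1457 genes, so the table appears to have been chosen on level as well as on difference. With 1 saline library, a level of saline-treated pancreas and a level of that library cannot be told apart.

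The 40 genes fell into groups of unlike form. For 19 genes the value was 0.01 in all 4 caerulein libraries, and for another 3 it was 0.01 in both wild-type caerulein libraries with values of at most 1.11 in the knockout. A further 5 genes were detected after caerulein at a wild-type mean under 0.2 of the saline value. The remaining 13 had wild-type means of 0.366 to 0.964 of saline. The size of the set rests on the deposited scale: with libraries brought to equal sums, leaving out the 20 most abundant genes, 449 genes lay below saline, the 40 among them. Median values of the 40 genes were 11 in saline, 0.01 in wild-type replicates 1 and 2, 0.01 in knockout replicate 1 and 0.085 in knockout replicate 3. The corresponding medians over all 1457 genes ran the other way, from 0.62 in saline to between 7.59 and 12.9 in the caerulein libraries.

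**Figure D1:**
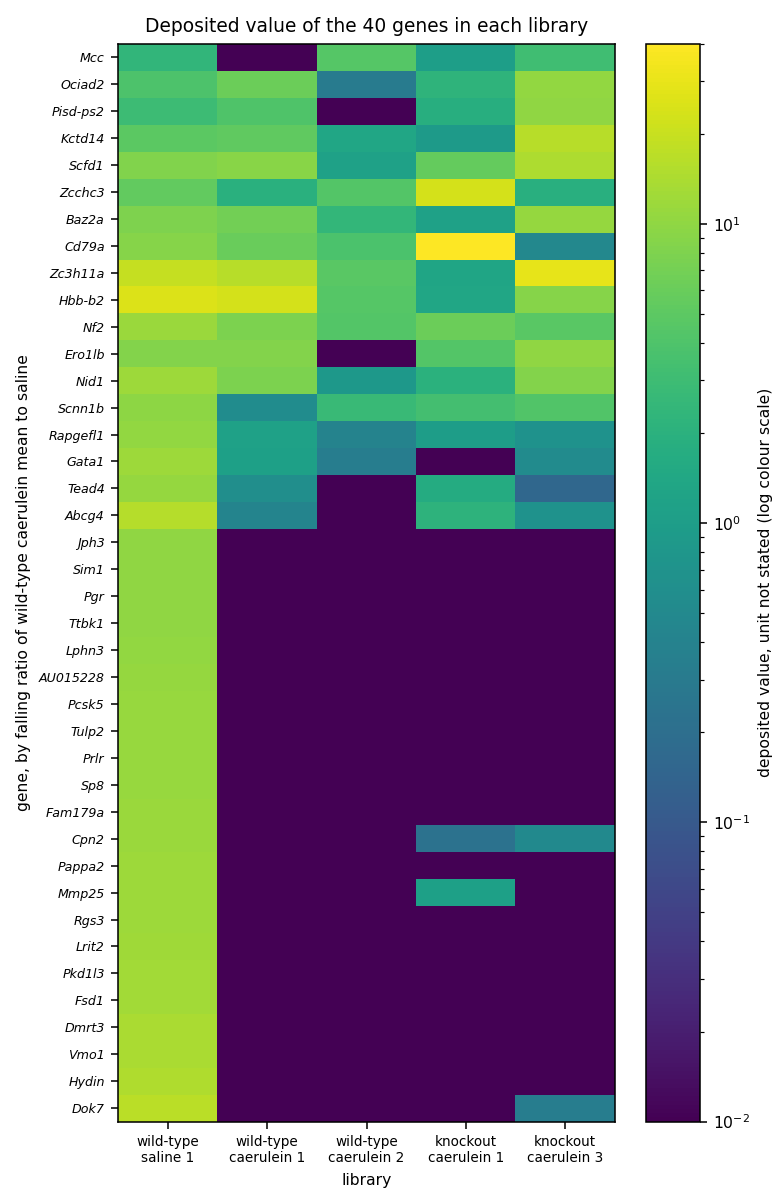
Deposited value (log colour scale, unit not stated) of the 40 genes, as rows with the highest caerulein-to-saline ratio at the top, in the 5 libraries, as columns. The lower rows are bright in saline alone, 19 of them at 0.01 in all 4 caerulein libraries, while the upper 13 are bright in saline and in some caerulein libraries.

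Promoters are shown first, since the number of CG dinucleotides is a feature of these genes that the rule did not use. CG dinucleotides are dense in the promoters of most broadly expressed genes and sparse in those of many tissue-restricted genes. The sequences are the 100 bases before the RefSeq start on build GRCm38.p6, 5′ to 3′ on the gene's strand, with each CG in capitals. The first 4 are the 2 with the fewest and the 2 with the most CG in 250 bases among the 19 genes listed in saline alone, and the last 2 are the lowest and the highest of the 13 genes with partial values, in each case among genes with 1 RefSeq promoter entry. The files themselves carry no coordinates.
Pappa2 (chr1:158958176-158958275, minus strand): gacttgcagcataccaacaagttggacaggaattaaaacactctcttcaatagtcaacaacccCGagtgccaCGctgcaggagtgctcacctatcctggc
Vmo1 (chr11:70514617-70514716, minus strand): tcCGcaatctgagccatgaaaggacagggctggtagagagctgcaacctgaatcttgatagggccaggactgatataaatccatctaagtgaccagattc
Pcsk5 (chr19:17837633-17837732, minus strand): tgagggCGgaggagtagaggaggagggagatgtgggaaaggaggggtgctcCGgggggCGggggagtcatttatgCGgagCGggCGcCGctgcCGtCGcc
Jph3 (chr8:121730459-121730558, plus strand): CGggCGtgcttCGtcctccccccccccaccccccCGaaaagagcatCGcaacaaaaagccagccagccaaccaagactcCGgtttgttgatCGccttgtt
Cd79a (chr7:24897397-24897496, plus strand): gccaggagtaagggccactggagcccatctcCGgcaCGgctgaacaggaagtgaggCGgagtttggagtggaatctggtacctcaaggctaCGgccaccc
Baz2a (chr10:128092683-128092782, plus strand): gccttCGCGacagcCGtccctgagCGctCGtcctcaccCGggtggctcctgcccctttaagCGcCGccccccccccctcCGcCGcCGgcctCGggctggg

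The 250 bases before the start held 2 CG in Pappa2 and 2 in Vmo1, against 15 in Pcsk5 and 31 in Jph3. They held 6 CG in Cd79a and 20 in Baz2a. A promoter entry was found for 17 of the 19 genes listed in saline alone, and 11 of these (64.7%) had fewer than 10 CG in the 250 bases. Over all 27025 RefSeq genes with an entry the share was 61.8%, and the medians were 6 CG for both sets. Of the other 15 members with an entry, 7 (46.7%) had fewer than 10 CG, with a median of 10. The share among the genes listed in saline alone was thus near that of RefSeq genes at large, and no test was made. Those listed in saline alone are all protein-coding, whereas the RefSeq genes were not filtered by gene type. With the entry richest in CG taken for genes that have several, the share was 10 of 17 for the genes listed in saline alone and 59.8% for RefSeq, and the medians were 9 and 6 CG. CG on one strand is CG on the other, so both strands are covered by each count. The same check against the 1457 genes of the table is void, since only 1155 of them (79.3%) had an entry, under the 80% set as a minimum. The other members taken alone also fell under that minimum, so their 46.7% and median of 10 are a description only.

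**Figure D2:**
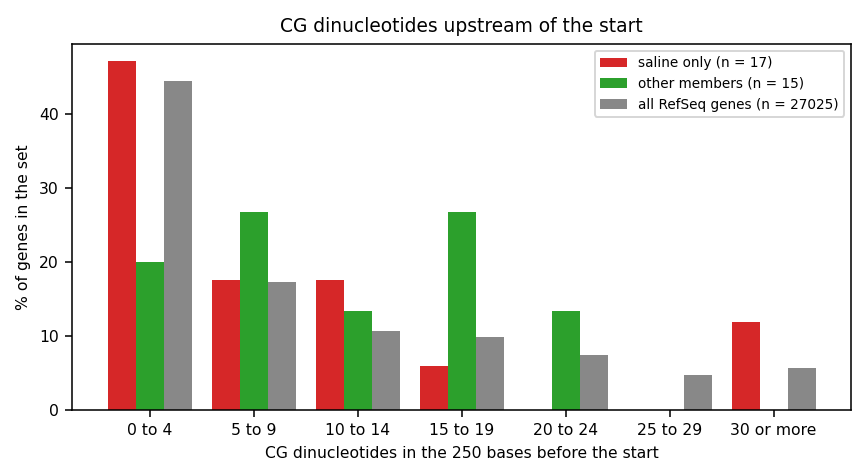
Number of CG dinucleotides in the 250 bases before the start (horizontal axis, in bins) and the percentage of genes in each set (bars, vertical axis), for the genes listed in saline alone (17 with an entry), the other members (15) and all RefSeq genes (27025). The bin of 0 to 4 CG held 47.1% of the genes listed in saline alone, 20% of the other members and 44.5% of RefSeq genes.

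Among the 19 genes listed at 0.01 in every caerulein library were transcription factors and a nuclear hormone receptor. Sim1, a bHLH-PAS factor of hypothalamic development, was 10 in saline, and Pgr, the progesterone receptor, was 10.02. Sp8, a zinc-finger factor of limb and forebrain, was 11.04, and Dmrt3, a factor of spinal interneurons, was 14.01. All of these are factors known for development or hormone response outside the exocrine pancreas.

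Genes known mainly from neurons made up another part. Jph3, a junctophilin that ties the plasma membrane to the endoplasmic reticulum, was 10 in saline, and Ttbk1, a kinase of tau and tubulin, was 10.03. Lphn3 (now Adgrl3), an adhesion receptor of synapses, was 10.34, and Fsd1, a microtubule-associated protein, was 12.8. None of the 4 was above 0.01 in a caerulein library.

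Receptors, secreted proteins and signalling genes followed the same form. Prlr, the prolactin receptor, was 11 in saline, and Rgs3, a regulator of G-protein signalling, was 12. Pcsk5, a proprotein convertase, was 10.96, and Pappa2, a protease of insulin-like growth factor binding proteins, was 11.68. Each was at 0.01 in all 4 caerulein libraries. Vmo1, a small secreted protein named for the outer layer of the vitelline membrane, was 14.08.

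The last of the 19 include genes known from sensory cells, cilia and germ cells. Lrit2, a leucine-rich repeat protein of the retina, was 12.31 in saline, and Pkd1l3, a channel-related protein of taste cells, was 12.73. Hydin, a protein of the central apparatus of motile cilia, had the highest value of the 19 at 14.97. Tulp2, a tubby-like protein known from testis, was 10.98. Fam179a (now Togaram2), given no role here, was 11.52, and AU015228, an unnamed gene model, was 10.71. These roles were assigned after the symbols were seen, and no enrichment of a tissue was tested.

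Saline values of the 19 genes lay in a narrow band, from 10 to 14.97 with a median of 11. The table holds no gene listed above 0.01 in saline alone with a value under 10, the level that most genes of the table reach in some library. Genes listed above 0.01 in 1 library alone numbered 19 for saline, 3 for wild-type caerulein replicate 2 and 0 for each of the other 3 libraries. A gene listed in saline alone can reach that level only in saline. The lower edge of the band and these counts therefore cannot be told apart from the way the table was chosen, which is not stated. The longest annotated transcripts of the 19 had a median length of 4698 bases (672 to 15783), against 3642 over the 1451 genes of the table with a length. The 40 genes were spread over 19 chromosomes, with at most 5 on the same one.

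Of the 3 genes at 0.01 in both wild-type caerulein libraries and listed in the knockout, Dok7 had the highest saline value. Dok7, the activator of the receptor kinase MuSK at the neuromuscular junction, was 16.92 in saline, against 0.01 and 0.34 in knockout replicates 1 and 3. Mmp25, a membrane-anchored metalloprotease of neutrophils, was 11.79 in saline, against 1.11 and 0.01 in the knockout. Cpn2, the regulatory subunit of the plasma enzyme carboxypeptidase N, was 11.66 in saline, against 0.23 and 0.52 in the knockout. Each knockout value lay far below saline, and the knockout libraries differed from each other in whether Dok7 and Mmp25 were detected at all.

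In 5 further genes every caerulein library showed a value below saline. Abcg4, a sterol transporter known from brain, was 15.93 in saline, 0.42 and 0.01 in wild-type replicates 1 and 2, and 2.15 and 0.69 in knockout replicates 1 and 3. Gata1, the master transcription factor of red cells and megakaryocytes, was 11.72 in saline, 1.12 and 0.34 in the wild type, and 0.01 and 0.54 in the knockout. Tead4, a DNA-binding partner of the Hippo effectors, was 10.69 in saline, 0.61 and 0.01 in the wild type, and 1.65 and 0.16 in the knockout. For these 3 genes the saline value was at least 6.48 times the highest caerulein value. Rapgefl1, a protein related to exchange factors of the GTPase Rap, was 10.44 in saline, 1.15 and 0.41 in the wild type, and 1 and 0.69 in the knockout. Scnn1b, the beta subunit of the epithelial sodium channel, was 9.69 in saline, 0.57 and 2.74 in the wild type, and 3.34 and 4.17 in the knockout. Its saline value was 2.32 times the highest caerulein value, the smallest such gap of the 5.

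The 13 genes with partial values were not uniformly lower. In 7 of them both wild-type caerulein libraries lay below saline, and in the other 6 a single wild-type library did. Over the 40 genes both wild-type libraries lay below saline in 34, a count that the rule largely fixes (36 of 1457 genes, 2.47%, in the table).

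Genes of blood cells are part of the 13. Hbb-b2, a beta-globin chain of adult haemoglobin, had the highest saline value of the 40 at 25.6, with 23.28 and 4.56 in wild-type replicates 1 and 2 and 1.37 and 8.9 in knockout replicates 1 and 3. Wild-type replicate 1 thus stood close to saline, and both knockout libraries stood below it. Hbb-b2 was the only 1 of 22 listed erythroid genes in the table, and reads can be divided between it and its near-identical neighbour. In whole tissue, fewer cells of a type and less RNA per cell cannot be told apart.

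Cd79a, a signalling chain of the B-cell receptor, was 8.8 in saline, 5.95 and 3.81 in the wild type, and 39.74 and 0.48 in knockout replicates 1 and 3. The knockout libraries lay on both sides of all others. Of 29 listed lymphoid and antigen-presentation genes 4 were in the table, and their summed value was 12.3 in saline and 32.28 to 158.37 after caerulein. The sum over all genes of the table was higher after caerulein too, at 2818 in saline and 23255 to 38628 after caerulein. Igj, the joining chain of secreted antibodies, was 10.9 in knockout replicate 1 and 1.64 in replicate 3. H2-Eb1, a class II antigen-presenting chain, was 100.05 and 36.72, and Ptprc, the pan-leukocyte marker CD45, was 7.68 and 4.09. All 4 were higher in knockout replicate 1 than in replicate 3, where the medians over all genes were 11.1 and 10. In wild-type replicates 1 and 2 Igj was 51.75 and 0.77, H2-Eb1 74.25 and 25.44, and Ptprc 11.26 and 2.26. These gaps were wider than that of Cd79a, at 5.95 and 3.81. The part of lymphoid cells in the Cd79a values was not tested.

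Genes of secretion and of the cell surface formed a second part of the 13. Nid1, the basement membrane linker nidogen, was 11.73 in saline, 7.74 and 0.84 in the wild type, and 2.02 and 8.46 in the knockout. Nf2, the tumour suppressor merlin, was 11.66 in saline, 7.79 and 4.34 in the wild type, and 6.21 and 4.82 in the knockout. Both genes were below saline in all 4 caerulein libraries. Ero1lb, an oxidase for disulfide formation in the endoplasmic reticulum that is abundant in pancreas, was 8.48 in saline, 8.63 and 0.01 in the wild type, and 4.32 and 10.04 in the knockout. Scfd1, a Sec1-family protein of transport from the endoplasmic reticulum to the Golgi, was 8.44 in saline, 9.14 and 1.17 in the wild type, and 5.7 and 14.38 in the knockout. For Ero1lb and Scfd1, wild-type replicate 1 and knockout replicate 3 lay at or above saline, and the wild-type mean was low through replicate 2.

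Nuclear and RNA-binding proteins were the third part. Zc3h11a, a zinc-finger protein of messenger RNA export, was 19.08 in saline, 16.29 and 4.84 in the wild type, and 1.29 and 29.61 in the knockout. Baz2a, a subunit of the complex that silences ribosomal DNA, was 8 in saline, 6.87 and 2.4 in the wild type, and 1.14 and 10.71 in the knockout. Both were above saline in knockout replicate 3 and lowest in knockout replicate 1. Zcchc3, a nucleic-acid-binding zinc-finger protein, was 5.38 in saline, 1.95 and 4.33 in the wild type, and 23.25 and 1.86 in the knockout, the opposite order of the knockout libraries.

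The other 4 had the lowest saline values of the set. Kctd14, a protein with a tetramerisation domain, was 4.99 in saline, 5.21 and 1.35 in the wild type, and 0.92 and 16.46 in the knockout. Ociad2 was 4 in saline, 6.11 and 0.32 in the wild type, and 2.2 and 10.54 in the knockout. Pisd-ps2, a transcribed pseudogene of phosphatidylserine decarboxylase, was 2.96 in saline, 4.13 and 0.01 in the wild type, and 1.83 and 10.02 in the knockout, and its reads can be shared with the parent gene. These 3 had a wild-type library above saline and knockout replicate 3 above all others. Mcc, a regulator of cell migration named for its mutation in colorectal cancer, was 2.37 in saline, 0.01 and 4.56 in the wild type, and 1.05 and 3.13 in the knockout.

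Across the 13 genes wild-type replicate 1 was above replicate 2 and, at once, knockout replicate 3 above replicate 1 in 9. The same order held for 611 of all 1457 genes (41.9%). The labels name no batch that these libraries share. In 6 of the 40 genes a wild-type library lay above saline, so that membership rested on the other. By wild-type replicate 1 alone 42 genes lay below saline, 35 of them among the 40, and by replicate 2 alone 121 genes did, 39 of them among the 40.

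**Figure D3:**
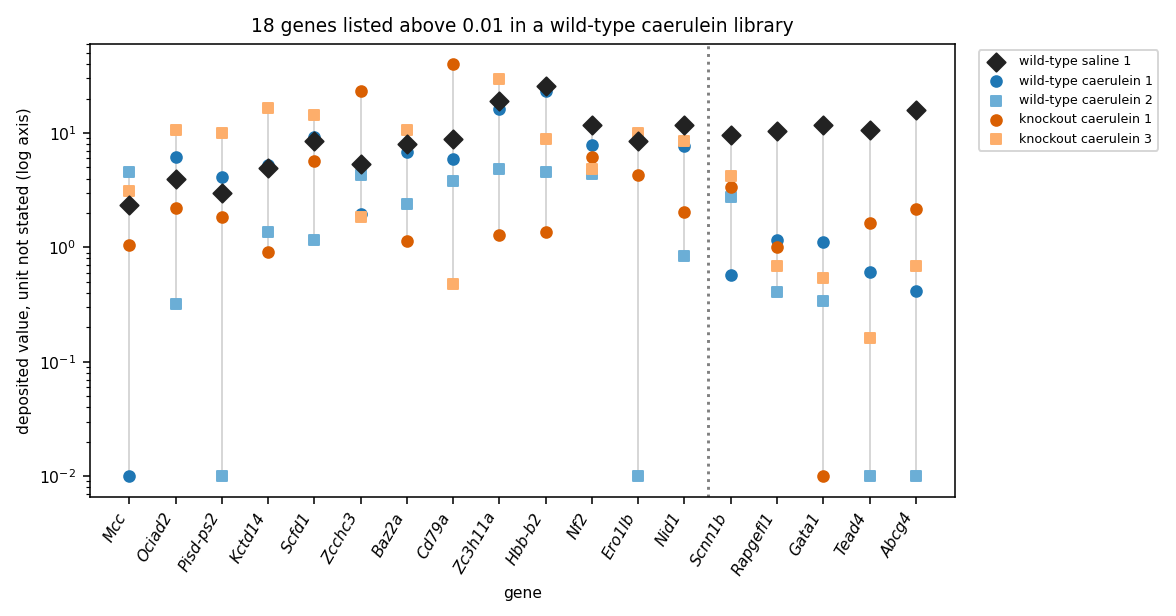
Deposited value (log axis, unit not stated) in each of the 5 libraries for the 18 genes listed above 0.01 in a wild-type caerulein library; grey lines join the lowest and highest library of a gene, and the dotted line parts the 13 genes with partial values (left) from the 5 with a mean under 0.2 of saline. Black diamonds (saline) stand above all other points in the 5 genes at the right and lie among them in most of the 13, as in Cd79a with 8.8 in saline and 39.74 and 0.48 in the knockout.

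The genes nearest the threshold had low values or widely spread ones. Just inside it the ratio of the wild-type mean to saline was 0.964 for Mcc, 0.804 for Ociad2, 0.699 for Pisd-ps2, 0.657 for Kctd14 and 0.611 for Scfd1. Just outside it Prss1, a trypsinogen, was at 0.01 in all 3 wild-type libraries, so that its ratio of 1 compares undetected values, and was 6.5 and 12.28 in the knockout. Stk38l, a kinase of the NDR family, was 5.38 in saline and 10.91 and 0.01 in the wild type, a ratio of 1.01. Dynll1, a dynein light chain, was 3.09 in saline and 6.26 and 0.51 in the wild type, a ratio of 1.1.

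The knockout libraries were not used by the rule, and they were compared with the same saline library that was. Both lay below saline in 30 of the 40 genes, on both sides of it in 10, and above it in 0. Over the whole table both knockout libraries lay below saline in 36 of 1457 genes (2.47%). By form of the values the 30 comprised all 19 genes listed in saline alone, all 3 at 0.01 in both wild-type caerulein libraries and detected in a knockout one, all 5 under 0.2 of saline, and 3 of the 13 with partial values, namely Hbb-b2, Nf2 and Nid1. The 19 were grouped by being at 0.01 in the knockout libraries too, so their place among the 30 was fixed by that grouping. Knockout replicate 3 was above saline in 8 of the 13 and replicate 1 in 2, Zcchc3 and Cd79a. The knockout mean was below saline in 34 of the 40 genes (43 of 1457, 2.95%, in the table) and above it in 6: Ociad2, Pisd-ps2, Kctd14, Scfd1, Zcchc3 and Cd79a. On the log2(value + 1) scale the differences of Kctd14 (−0.049) and Cd79a (−0.336) were negative, and those of the rest of the 6 were positive. Since the saline value enters both the choice of the genes and this comparison, the count of 30 is not independent support for lower levels after caerulein.

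**Figure D4:**
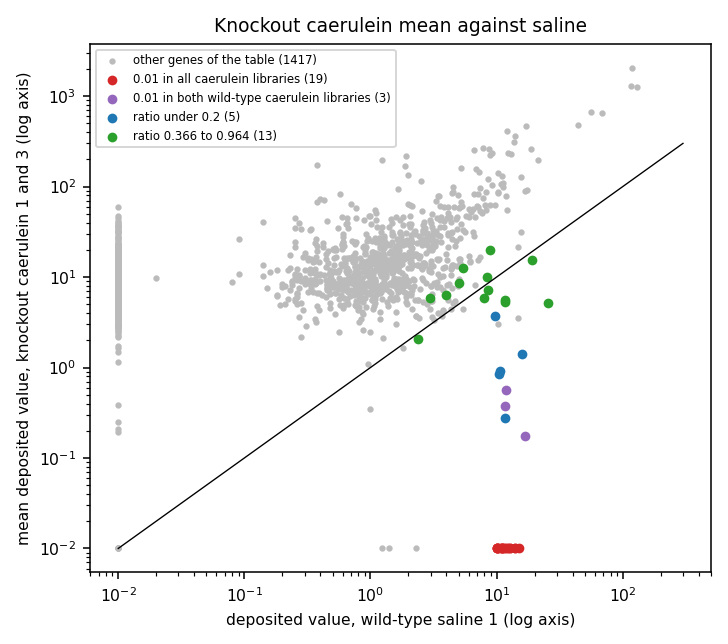
Mean of the 2 knockout caerulein values (vertical log axis) against the saline value (horizontal log axis) for each of the 1457 genes, with a black line at equality. The 40 genes are coloured by the form of their values in the wild-type and knockout libraries. Those listed in saline alone were set apart by their knockout values too, so their height in the plot follows from the grouping. Most grey points lie above the line, the 19 genes listed in saline alone lie at 0.01 on the vertical axis between 10 and 14.97 on the horizontal one, and 6 of the 13 genes with partial values lie above the line.

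On the log2(value + 1) scale the median difference of the 40 genes was −3.40 for knockout caerulein minus saline and −3.45 for wild-type caerulein minus saline. Over all 1457 genes these medians were 2.78 and 2.69. The medians of the 40 are set by genes at 0.01 after caerulein and their size depends on the number added: with 0.1 added in place of 1, that of the knockout was −5.88. A limma model across the table was limited to genes that reached 1 in 2 or more libraries, a filter that 19 of the 40 genes passed and 21, including all 19 listed in saline alone, did not. For knockout caerulein against saline limma called 1 of the 19 lower and 0 higher (threshold 0.05, Benjamini-Hochberg), and the same count had a raw p below 0.05. Among all genes tested, 2 of 1429 genes (0.14%) were called lower and 861 (60.3%) higher. The saline library that chose the genes is the whole saline arm of this fit, and the choice favours lower values after caerulein. The calls on members are therefore given as a description and are no test of them. With equal sums 12 of 15 members tested were called lower, against 33 of 1424 genes (2.32%) in the table.

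The gene called was Hbb-b2, with a difference of −2.46 (SE 1.01) on the log2(value + 1) scale and values below saline in 2 of 2 knockout libraries. Without knockout replicate 1 the difference was −1.43. That fit leaves 1 library in each of the 2 groups compared and loses most calls of the table, so the lost call of Hbb-b2 is not particular to this gene. Gata1 (log2 difference −3.35, SE 3.22), Abcg4 (−2.88, SE 2.84) and Mmp25 (−3.13, SE 3.55) had differences about the size of their SEs and were not called. Under other fits the calls differed: with only the 2 groups compared Abcg4, Mmp25, Rapgefl1 and Tead4 were called lower, without wild-type replicate 1 Abcg4 and Mmp25, and without wild-type replicate 2 Gata1, each beside Hbb-b2. The median SE over the table was 1.07.

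Knockout and wild-type libraries after caerulein were compared next, in mice with and without miR-21. The wild-type values of this comparison also entered the choice of the genes, which favours higher knockout values. Limma called 0 of the 19 tested genes, with an adjusted p of 0.9997 for each and 0 at an unadjusted p under 0.05. Among all tested genes limma called 0 of 1429 (0%), with 7 at an unadjusted p under 0.05. SEs of the 19 genes ran from 0.82 to 2.90 on the log2 scale. An exact permutation test of 2 libraries against 2 cannot give a two-sided p under 0.333.

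Both knockout libraries lay above both wild-type libraries in 3 of the 40 genes, Scnn1b, Abcg4 and Cpn2, named after their values were seen, and below in 0. In the table these orders held for 69 genes (4.74%) and 66 genes (4.53%). The 22 members at 0.01 in both wild-type caerulein libraries could not lie below, whatever their knockout values. Of these, the 19 at 0.01 in all 4 libraries could lie neither above nor below. The counts of 3 and 0 are therefore not comparable with the shares of the table. The median log2 difference of the 40 genes was 0.00, since 19 stood at 0.01 in all 4 libraries, and that of all 1457 genes was 0.09.

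Gene lists of cell types and pathways held few of the genes. Of 456 symbols in 20 lists 46 were in the table, and 2 of the 40 genes, Hbb-b2 and Cd79a, were in a list. Of 53 acinar symbols 5 were in the table and 0 among the 40. Of those 5, 3 passed limma's test as higher in wild-type caerulein than in saline (819 of 1429 tested genes, 57.3%), and Klk1, a tissue kallikrein, was 8.93 in saline and 562.8 and 22.23 in the wild type. Of 34 islet symbols 0 were in the table, but that list does not hold the pair of islet genes left aside by the rule. The count therefore says nothing of that pair. Of 17 duct symbols 1 was in the table, and it was not among the 40. For nerve and Schwann cells 2 of 22 symbols were in the table and 0 among the 40. Muscle and germ cell lists had 0 of 20 and 0 of 16 symbols in the table. Clock genes (2 of 22 in the table), amino acid metabolism (5 of 30), endoplasmic reticulum folding (1 of 32) and long non-coding nuclear RNAs (4 of 19) had 0 members each. Adipocyte, liver, intestinal, endothelial, glucocorticoid, translation, iron and sterol lists likewise had 0 members, with 1 to 7 genes in the table. The 38 members outside the lists therefore carry no tissue assignment from them.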

How the data were processed

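Poly(A) RNA of mouse pancreas was fragmented, reverse transcribed with random primers and sequenced on an Illumina instrument, per the labels' protocols. Bowtie 0.12.2 and genome build mm8 are named in the submitters' processing notes; the labels and files do not say how values were quantified or normalized. Each deposited file gives 1 signal value of unstated unit per gene symbol, for 1457 genes in each of 5 libraries, plus 1 blank row. The depth behind a value is unknown.

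Values were used as deposited, on the log2(value + 1) scale. limma 3.58.1 in R 4.3.3 was fitted with 1 mean per group over all 5 libraries and a trended, robust variance, with Benjamini-Hochberg adjustment over the 1429 genes that had at least 1 in at least 2 libraries. The saline library, alone in its group, is assumed to vary like the others, and if replicates are not separate mice the p-values measure technical spread. The script was tested on simulated data with 200 changed genes, scored for knockout against wild-type caerulein alone. The comparison with the saline library was not scored in that test. All 40 symbols matched a RefSeq gene, 3 under a newer name. By the naming rule every member was named, with all library values for the 15 of highest saline value, those nearest the threshold, called genes and genes in a list; here they are given for all 40, with the 3 genes just outside. Alternatives were other scalings, pseudocounts, filters and variance settings, and leaving out each replicate. Members and lists were chosen with earlier results of these data known. Tables were handled in Python 3.11.15.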

Additional observations from a re-analysis of the deposited data

How the results depend on the processing

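The number of genes below saline after caerulein depended on the scale of the libraries. It was 40 as deposited, 449 with equal sums, 577 with quantile normalization and 443 with caerulein libraries divided by their median ratio to saline, each of which raises saline relative to the caerulein libraries and kept the 40. Leaving out wild-type replicate 2 or 1 gave 42 or 121. The count was 34, 53 and 28 when both values, the mean of log2 values or a mean at most 0.5 of saline was required. Both knockout libraries lay below saline in 30 of the 40 genes as deposited and in 40 under each scaling, which lowers all caerulein libraries against saline; over all genes 338, 441 and 343 of 1457 genes (23.2%, 30.3% and 23.5%) then did. The number called for knockout against saline, 1, became 12, 5 and 3 under the scalings in the order above (15, 19 and 6 of the 40 tested; over all genes 33, 6 and 5 were called lower, 2.32%, 0.418% and 0.553%) and 5 with only the 2 groups compared (6 genes lower in the table, 0.429%), all lower. It was 0 without knockout replicate 1 (0 genes lower in the table), 3 without wild-type replicate 1 (4 genes, 0.282%) and 2 without wild-type replicate 2 (3 genes, 0.211%). With no filter, all 40 genes being tested, it was 1 (2 of 1457 genes lower in the table, 0.137%). The median difference of −3.40 became −6.05, −5.85 and −3.53 under the scalings (all genes 0.77, 0.05 and 0.37), −5.88 with a pseudocount of 0.1, and −3.45 to −3.40 when single libraries were dropped. For knockout against wild type 0 of the 40 genes were called under every setting run, and the median was −0.23 with quantile normalization.

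Signs of genes not called on the deposited scale also turned, and Ociad2, Scfd1 and Zcchc3 were then called lower with equal sums and Scfd1 with median ratios. For knockout minus saline, equal sums gave −2.71 for Ociad2, −2.40 for Pisd-ps2, −3.10 for Scfd1 and −2.69 for Zcchc3, quantile normalization −2.28, −2.02, −2.46 and −2.63, and median ratios −2.33 for Scfd1 and −1.74 for Zcchc3. With a library left out the ranges were −0.72 to 0.29 for Mcc, −0.64 to 1.21 for Ociad2, −0.49 to 1.48 for Pisd-ps2, −1.64 to 1.54 for Kctd14, −0.50 to 0.70 for Scfd1, −1.16 to 1.93 for Zcchc3, −2.07 to 0.38 for Baz2a, −2.73 to 2.06 for Cd79a, −3.13 to 0.61 for Zc3h11a and −0.83 to 0.22 for Ero1lb. For knockout minus wild type, Mcc was −0.002 with equal sums, Baz2a 0.13 and Rapgefl1 −0.32 with quantile normalization, Zc3h11a 0.07 with median ratios and Cd79a −0.017 with a pseudocount of 0.1. Left-out ranges were −0.93 to 1.53 for Mcc, −0.23 to 2.20 for Ociad2, −0.99 to 2.19 for Kctd14, −0.47 to 2.61 for Zcchc3, −1.27 to 1.18 for Baz2a, −1.97 to 2.82 for Cd79a, −2.13 to 1.61 for Zc3h11a, −0.44 to 0.28 for Nf2, −0.33 to 2.92 for Ero1lb, −0.71 to 1.54 for Nid1 and −0.23 to 0.38 for Rapgefl1. No paired analysis was made, because the replicate numbers come from the sample titles and are not known to pair mice between groups. Depth is unknown, so what it limits could not be stated.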
